A study of Mus musculus with 2 samples.

Results

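Kinesins are motor proteins that use ATP to act on microtubules, and their family was examined here in activated mouse CD4 T cells. Members were all genes whose symbol is Kif followed by a digit, except Kif3a, with a probe set that the platform annotation pairs with that symbol alone. This gave 36 of 17097 genes, covered by 77 probe sets. The symbol rule reads no intensity, but it leaves out Kif3a by name, whose values are given with those of Kif3b. By their known roles, 11 were counted as mitotic, 14 as transport, 5 as ciliary and 6 as other kinesins. The symbol rule misses the mitotic motor Cenpe and the minus-end Kifc motors, which were listed with the partner genes.

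The cells were naive, Foxp3-negative CD4 T cells of C57/Bl6 mice aged 6 weeks that carry a Foxp3-eGFP reporter, which were stimulated through the T cell receptor with soluble anti-CD3 for 48 hours. Both cultures held T cell-depleted spleen cells as antigen-presenting cells (APC), treated with mitomycin C at 50 ug/ml to stop their division. The APC came from wild type B6 mice (Wt APC) in one culture and from OX40L transgenic mice (OX40L-Tg APC) in the other, and OX40L is the ligand of the costimulatory receptor OX40 on T cells. Living CD4 T cells were sorted before RNA was taken, and each condition has 1 array, so no difference has a replicate, an error or a test. The promoter of the transgene and the number of mice are not given in the sources used here.

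Kinesins divide into motors that build and run the mitotic spindle and motors that carry vesicles, organelles and protein complexes along microtubules between divisions. Mitotic kinesins are made in proliferating cells, such as T cells a few days after receptor stimulation, and their transcripts are known to peak late in the cell cycle. Many genes of that phase carry a promoter element called the cell cycle genes homology region (CHR), which is bound by the MuvB complex, often with upstream CCAAT boxes bound by NF-Y. Transport kinesins are best known from neurons, where they move cargo along axons, and some also serve the primary cilium.

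RefSeq promoter windows of GRCm38.p6, running from 250 bases before to 50 bases after a transcript start, were matched by symbol for 30 of the 36 kinesins. Kif20a of the mitotic class, Kif5a, Kif5b, Kif13b and Kif21b of the transport class, and Kif28 are not covered. They are shown because motifs known from cell cycle genes can be counted in them by class, without any use of the arrays. The CHR core TTTGAA, searched on both strands, was present in the windows of 9 of 10 mitotic kinesins and 1 of 10 transport kinesins. Over all 27025 genes with a window, 20.2% held it. Kif14 and Kif2c are among the 9, although their windows belong to internal starts. The CCAAT box, also searched on both strands, was present in 6 of 10 mitotic and 2 of 10 transport kinesins, against 41.1% of all genes. Ciliary kinesins held the CCAAT box in 3 of 5 genes and the other kinesins in 2 of 5, and each of these groups held the CHR core in 1 of 5. Both motifs together were found in 6 of 10 mitotic and 0 of 10 transport kinesins, against 7.97% of all genes. The 6 include Kif14 with its internal start. Neither motif contains the letters of the other. Most CHR matches of mitotic kinesins lay close to the start: within 60 bases before to 50 bases after it, 7 of 10 mitotic, 1 of 10 transport, 0 of 5 ciliary and 1 of 5 other kinesins held the core, against 6.36% of all genes. That range was chosen after the positions in mitotic kinesins were seen.

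The 110 bases of that range are printed for the 7 mitotic kinesins with a CHR core there, and for the transport kinesin Kif3b, which has neither motif in that range. A CCAAT box of Kif3b begins 69 bases before the start, just outside the printed stretch. Capitals mark TTTGAA or CCAAT, or their reverse complements TTCAAA and ATTGG. In GRCm38.p6 the stretches are chrX:100626005-100626114 on the plus strand for Kif4, chr19:37376322-37376431 on the plus strand for Kif11, chr9:122951021-122951130 on the plus strand for Kif15, chr11:102925075-102925184 on the minus strand for Kif18b, chr19:34922298-34922407 on the plus strand for Kif20b, chr7:127042371-127042480 on the minus strand for Kif22, chr9:61946750-61946859 on the minus strand for Kif23 and chr2:153291356-153291465 on the plus strand for Kif3b.
Kif4: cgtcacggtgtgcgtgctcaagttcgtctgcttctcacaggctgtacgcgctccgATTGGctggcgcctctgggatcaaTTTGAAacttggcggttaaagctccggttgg
Kif11: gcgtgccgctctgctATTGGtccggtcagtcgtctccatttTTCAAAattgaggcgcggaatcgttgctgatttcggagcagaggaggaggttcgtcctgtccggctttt
Kif15: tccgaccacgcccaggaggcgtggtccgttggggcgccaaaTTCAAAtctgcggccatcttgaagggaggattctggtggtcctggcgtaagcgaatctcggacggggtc
Kif18b: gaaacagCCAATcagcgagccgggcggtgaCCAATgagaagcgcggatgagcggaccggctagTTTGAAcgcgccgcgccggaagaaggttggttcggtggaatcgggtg
Kif20b: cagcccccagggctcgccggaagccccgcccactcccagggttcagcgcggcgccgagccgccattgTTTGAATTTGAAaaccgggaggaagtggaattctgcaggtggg
Kif22: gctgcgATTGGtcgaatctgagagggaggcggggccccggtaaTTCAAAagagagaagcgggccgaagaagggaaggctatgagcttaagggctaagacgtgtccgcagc
Kif23: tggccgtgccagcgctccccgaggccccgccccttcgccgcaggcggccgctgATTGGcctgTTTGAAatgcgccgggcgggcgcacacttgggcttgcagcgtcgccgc
Kif3b: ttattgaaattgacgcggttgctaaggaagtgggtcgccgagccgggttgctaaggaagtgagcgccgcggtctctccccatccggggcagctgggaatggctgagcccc

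In Kif11 and Kif15 the CHR core began 19 bases before the start, and in Kif22 17 bases before it. In Kif23, Kif18b, Kif20b and Kif4 the first copy began at base 3, 4, 8 and 20 of the transcript. Kif20b carried a second copy directly behind the first. In Kif18b a pair of CCAAT boxes began 53 and 30 bases before the start. Kif14 and Kif2c held the core farther upstream, 228 and 103 bases before the start, and Kif18a held neither motif in its window. The windows of Kif14 and Kif2c lie inside the bounds of their genes in the RefSeq table, so each belongs to an internal start. Among transport kinesins the single CHR match was in Kif1a, a neuronal motor that was below background on both arrays, at the downstream and internal one of its starts. A match is a description of letters and shows no binding.

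**Figure D1:**
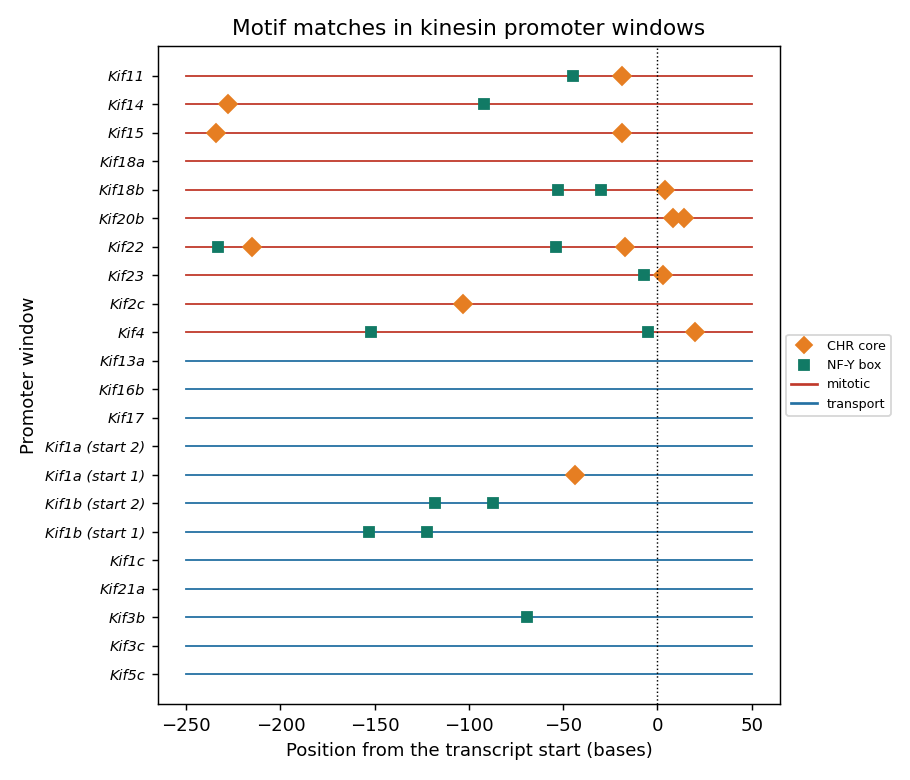
Matches of the CHR core (orange diamonds) and the NF-Y box (green squares) in promoter windows of mitotic (red lines) and transport (blue lines) kinesins, by distance from the transcript start in bases. In the mitotic class 9 of 10 genes have a CHR match, most of them near the start, and in the transport class 1 of 10. The windows of Kif14 and Kif2c, among the 9, belong to internal starts.

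Intensities are given in the linear units of the deposited table, the Wt APC value first. A difference is the log2 value with OX40L-Tg APC minus that with Wt APC, so a positive one means a higher reading with OX40L-Tg APC. As a floor served the median of an array, 14.7 units on both, and 10541 genes reached it on at least 1 array. A stricter background level was set for each array at the 95th percentile of organ-restricted genes such as liver and muscle transcripts. It was 36.3 units in the Wt APC culture and 38.1 units in the OX40L-Tg APC culture. Above the floor lay 22 of the 36 kinesins, and 18 were above background, all of these on both arrays. The arrays correlated with r = 0.993 over 45141 probe sets, on the log2 scale and after RMA. Probe sets of the same gene, which read the same RNA, scattered in their differences with a pooled SD of 0.12 over 2941 genes and of 0.12 over the 8 kinesins with several sets above background. That scatter says nothing about the spread between cultures. The number of arrays limits the precision.

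Macrophage and monocyte markers were below background in 7 of 7 genes, and so were 3 of 3 adipocyte markers with a value, checked because the extraction text of the labels speaks of adipose tissue. T cell markers were lower with OX40L-Tg APC in 7 of 8 genes, with a median difference of -0.30 and a summed level of 21701 and 18347 units. Markers of MHC class II cells were higher in 4 of 4 genes above background, with a median of 0.46 and a summed level of 2141 and 2956 units. Ciita, also on that list, was below background on both arrays and lower with OX40L-Tg APC, at 11.2 and 8.51 units. Each summed level counts every gene of its list with a value, also those below background. B cell markers were higher in 4 of 5 genes above background, with a median of 0.25 and a summed level of 697 and 949 units, while the B cell factor Pax5 was below background on both arrays. Of the NK cell list 1 of 3 genes, Klrd1, and of the erythroid list 1 of 2, Hba-a1, was above background. Both were lower with OX40L-Tg APC, with differences of -2.00 and -2.49. Klrd1 passed background only with Wt APC, at 78.7 units. It read 19.7 units with OX40L-Tg APC, so the size of its difference is uncertain. Cd8b1, a CD8 T cell marker, read 191 and 239 units, while Cd8a was below background. Of the dendritic cell list 1 of 4 genes was above background, Flt3, with a difference of -0.09. The part of these shifts in the kinesin values was not tested, and fewer cells of a type cannot be told apart from less RNA per cell.

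Mitotic kinesins read almost the same in both cultures, and transport kinesins differed more from gene to gene. Above the floor, 9 mitotic kinesins had a median difference of -0.05, with 3 higher and 6 lower and a range from -0.12 to 0.17. The 10 transport kinesins had a median of 0.11, with 8 higher and 2 lower and a range from -0.39 to 0.59. All 9 mitotic kinesins were above background. Of the transport kinesins 7 were, with 5 higher and 2 lower and a median of 0.11. The mitotic median minus the transport median was -0.16. The SD over genes was 0.09 in the mitotic and 0.25 in the transport class, which describes these genes on 2 arrays and is no test. The wider transport spread rests largely on Kif3b at 0.59 and Kif21b at -0.39. The other transport kinesins above the floor lay between -0.16 and 0.28. The classes also differed in brightness. Kif23, the dimmest of the 9 mitotic kinesins, read 136 and 153 units, while Kif5a, Kif13a and Kif17 were below background. Over the 7 transport kinesins above background the SD was 0.30. The part of brightness in the spread was not tested. The narrow mitotic range rests on the class list: with Kif2a, a depolymerase of spindles and neurons, counted as mitotic, the range of 10 genes was -0.39 to 0.17, the SD 0.14 and the median -0.06. All 10541 genes above the floor had a median of 0.02 and quartiles of -0.12 and 0.16, and 5687 of them were higher. Of the 8337 genes above background on at least 1 array, 4580 were higher.

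At least 1.5-fold apart was 1 of 22 kinesins above the floor, Kif3b, against 7.21% of all genes above the floor. At 2-fold it was 0 of 22, against 2.72%. At 1.2-fold, a size added after the values were seen, it was 5 of 22, against 26.6%. Those shares are near the shares of all genes. With Kif3a, which the rule leaves out, the counts were 2 of 23 at 1.5-fold and 1 of 23 at 2-fold. By class, 0 of 9 mitotic and 3 of 10 transport kinesins passed 1.2-fold, and with Kif2a counted as mitotic it was 1 of 10 in that class. Of those 3 transport kinesins Kif5a was below background. Above background 2 of 7 transport kinesins passed, against 25.2% of all genes above background.

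**Figure D2:**
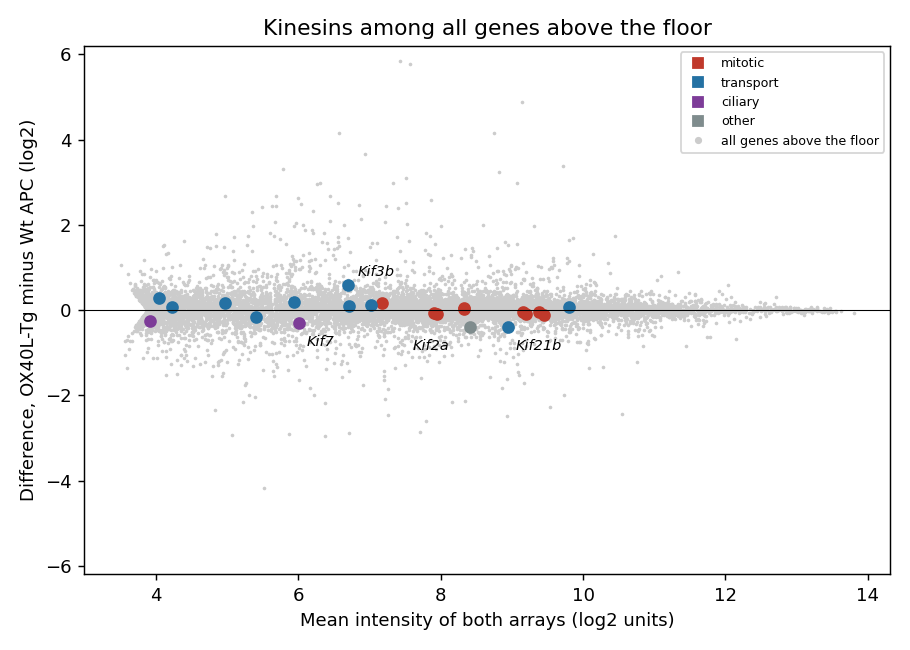
Difference between the arrays (log2, vertical) against the mean intensity of both arrays (log2 units, horizontal) for all genes above the floor (grey) and the kinesins by class (colours). The 22 kinesins lie between -0.39 and 0.59, within a cloud of genes that reaches from -4.17 to 5.84.

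The motors that set up the spindle come first. Kif11, known as Eg5, slides antiparallel spindle microtubules apart and read 609 and 567 units, a difference of -0.10. Its other probe set gave -0.12. Kif15, which helps Kif11 to keep the spindle bipolar, read 11.8 and 10.8 units in its only probe set, below background on both arrays. Tpx2, a spindle assembly factor that binds Kif11, differed by 0.06.

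Kinesins of chromosomes and kinetochores were likewise close. The chromokinesin Kif4, which acts on chromosome arms and at the spindle midzone, read 254 and 239 units, a difference of -0.09. Kif22, also a chromokinesin, read 679 and 660 units, and its 2 probe sets gave differences of -0.04 and -0.0024. Kif2c, the centromeric microtubule depolymerase MCAK, read 315 and 324 units. For Kif4 and Kif22 the Wt APC array was the higher one, and for Kif2c the OX40L-Tg APC array. Kif18a, which dampens chromosome oscillations at the metaphase plate, read 246 and 235 units. Kif18b, which controls astral microtubules, read 318 and 326 units. The first differed by -0.07 and the second by 0.03.

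Motors of cytokinesis held the largest difference of the mitotic class. Kif23, the motor of centralspindlin, read 136 and 153 units, a difference of 0.17, and its other probe set was below background. Racgap1, its partner in centralspindlin, read 718 and 628 units, a difference of -0.19. The pair thus differed in opposite directions. Kif20a, which brings the chromosomal passenger complex to the midzone, read 578 and 559 units. Kif20b, needed to complete cytokinesis, read 732 and 675 units, and its probe sets gave -0.12 and 0.03. Kif14, which works with citron kinase in cytokinesis, read 10.1 and 10.6 units in its only probe set, below background. Citron kinase, encoded by Cit, read 58.7 and 50.7 units, a difference of -0.21.

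**Figure D3:**
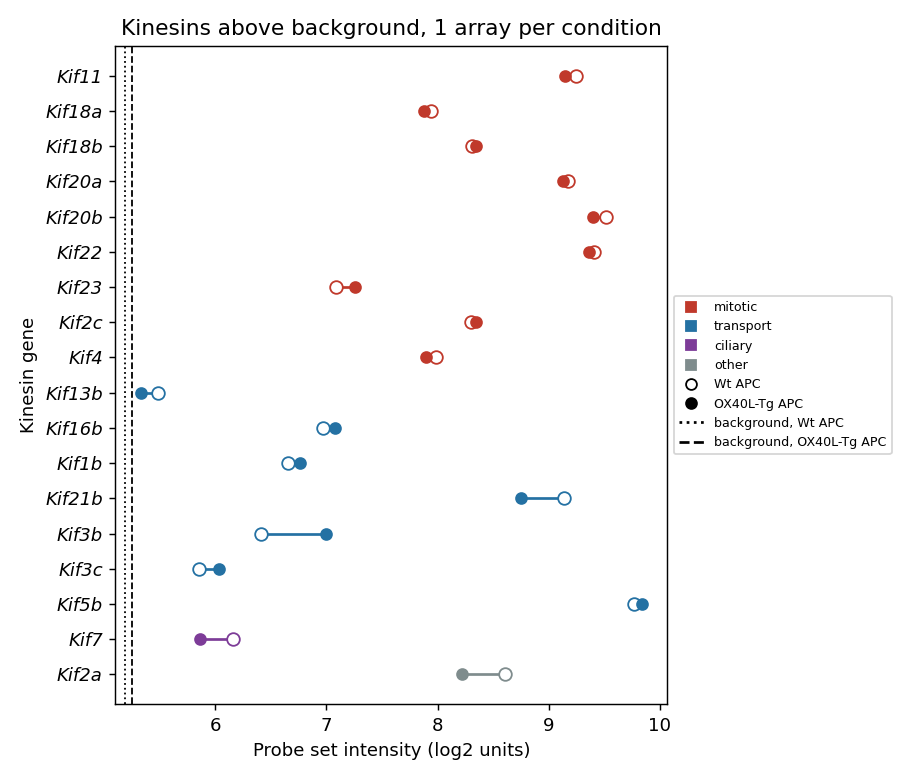
Intensity (log2 units) of the 18 kinesins above background with Wt APC (open circles) and OX40L-Tg APC (filled circles), coloured by class, with each array's background level as a vertical line. The mitotic pairs nearly coincide, with differences from -0.12 to 0.17, while Kif3b, Kif21b, Kif7 and Kif2a show the longest gaps.

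The transport kinesin with the largest difference was Kif3b, a motor subunit of heterotrimeric kinesin, which carries vesicles and builds cilia. It read 84.9 and 128 units, which is 1.505-fold higher with OX40L-Tg APC and a difference of 0.59. All 4 of its probe sets were higher, at 0.24, 0.48, 0.51 and 0.59, with a mean of 0.45. The size of 1.5-fold was thus reached in 1 of the 4 probe sets. Kif3a, the usual partner of Kif3b, a neighbour of Il4 in the genome and not counted among the members, read 126 and 421 units, 3.34-fold higher, and its 4 probe sets lay between 1.36 and 1.74. Kifap3, the third subunit of that motor, read 49.5 and 49.0 units. Kif3c, an alternative partner of Kif3a, read 57.8 and 65.5 units, a difference of 0.18. Kif17, the homodimeric member of the same family, was below background at 18.2 and 19.3 units. The motor's subunits therefore differed unequally: both Kif3a and Kif3b were higher in every probe set, and the adaptor differed by -0.01.

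Kif21b, a kinesin that restrains microtubule growth and is known from lymphocytes and neurons, showed the opposite direction. It read 564 and 432 units, 1.31-fold lower with OX40L-Tg APC, a difference of -0.39 in its only probe set. Its close relative Kif21a was below background at 12.1 and 12.6 units. T cell markers were lower on the same array by a median of -0.30, and their part in the Kif21b value was not tested.

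Conventional kinesin was nearly level. Kif5b, its widely expressed heavy chain, read 870 and 918 units, a difference of 0.08. Of its 5 probe sets, 4 lay between 0.03 and 0.08, and the fifth stood apart at 0.36. The neuronal heavy chains Kif5a and Kif5c were below background, at 14.9 and 18.1 units and at 10.9 and 12.2 units. Of the light chains, which link the heavy chain to cargo, Klc1 read 256 units on both arrays. Klc3 read 95.3 and 67.3 units, a difference of -0.50, and Klc4 read 67.3 and 54.1 units, a difference of -0.31. Both of these light chains were lower while the heavy chain was not.

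The vesicle motors related to Kif1 differed little. Kif1b, which moves mitochondria and vesicle precursors, read 101 and 108 units, and its 3 probe sets above background ranged from -0.04 to 0.19. Kif16b, which moves early endosomes, read 125 and 135 units, and its 2 probe sets gave 0.10 and 0.12. Kif13b, which carries membrane cargo, read 44.7 and 40.1 units, close to background, a difference of -0.16. Kif13a was just below background at 29.5 and 33.0 units. Kif1a and Kif1c were below background, at 11.4 and 11.1 units and at 13.6 and 12.95 units.

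Outside both classes, Kif2a was lower in all of its measured probe sets. Kif2a is a microtubule depolymerase of spindle poles and neurons and a relative of Kif2c. It read 391 and 299 units, 1.31-fold lower with OX40L-Tg APC, a difference of -0.39. Its 4 probe sets above background lay between -0.59 and -0.34, with a mean of -0.44, so 1 of them passed 1.5-fold. Kif2c, with which it shares its enzymatic activity, differed by 0.04. Kif2b was below background.

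**Figure D4:**
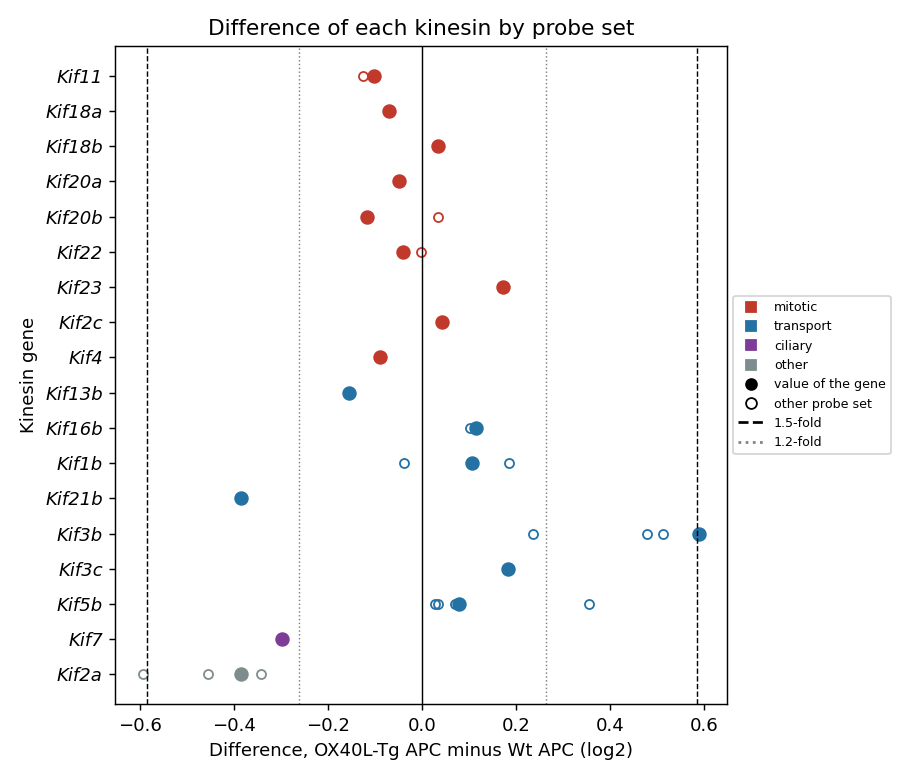
Difference of each kinesin above background (log2, OX40L-Tg APC minus Wt APC), with the value used for the gene filled and its other probe sets above background open, coloured by class. All 4 probe sets of Kif3b lie to the right of 0 and all 4 of Kif2a to the left, and the mitotic kinesins gather around 0.

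Of the ciliary kinesins, Kif7, a regulator of hedgehog signalling at the ciliary tip, read 71.6 and 58.3 units in its only probe set, a difference of -0.30. Kif24, which restrains cilia at the centriole, read 16.5 and 13.7 units, and Kif6, Kif9 and Kif27 read between 9.48 and 13.99 units on both arrays, all below background. Among the remaining kinesins, Kif12, Kif26a, Kif26b and Kif28 were also below background on both arrays. Of 9 genes of cilia and hedgehog signalling above background on at least 1 array, 6 were higher and 3 lower, with a median of 0.18. Ift81, a component of ciliary transport, read 26.3 units, below background, and 48.6 units. It counts among the higher genes but passed background only with OX40L-Tg APC. Ptch1, the hedgehog receptor, read 386 and 288 units, a difference of -0.42. The hedgehog genes were mixed: Sufu was also lower, with a difference of -0.28, and Smo was higher, with 0.31. Gli1, Gli2 and Gli3 were below background on both arrays.

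Partners of the mitotic kinesins also read close together on both arrays. Of 22 spindle and midzone partners, 8 were higher and 14 lower, with a median of -0.03, and 0 passed 1.5-fold, against 7.66% of the 8337 genes above background. The checkpoint kinase gene Ttk stood apart at 0.31, from 435 to 539 units. Cenpe, the kinetochore kinesin that the symbol rule misses, read 842 and 778 units, a difference of -0.11, and Kifc2 and Kifc3, minus-end motors, were below background. Of the 9 proliferation markers, 2 were higher and 7 lower, with a median of -0.03 and a summed level of 15589 and 14758 units. Plk1, Aurka, Aurkb and Bub1 among them also belong to the 22 partners, so the lists overlap. Of 16 regulators of mitotic transcripts, 8 were higher and 8 lower. Mybl2, which encodes the MuvB partner B-Myb, differed by 0.39 and E2f2, a factor of cell cycle entry, by -0.48. Foxm1, another MuvB-associated factor, differed by -0.08 and Lin54, the MuvB subunit that contacts the CHR, by 0.18.

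Of 18 subunits and adaptors of dynein and dynactin, the motor that runs opposite to most kinesins, 14 were higher and 4 lower. Among all 8337 genes above background, 4580 were higher. The 18 had a median of 0.04, and 0 of them passed 1.2-fold, against 25.2% of genes above background. Dync1li1, a dynein light intermediate chain, differed by 0.25 and Ndel1, a dynein regulator, by 0.22. Of 9 kinesin light chains and cargo adaptors, 3 were higher and 5 lower, with a median of -0.0046, and 2 of 9, Klc3 and Klc4, passed 1.2-fold.

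**Figure D5:**
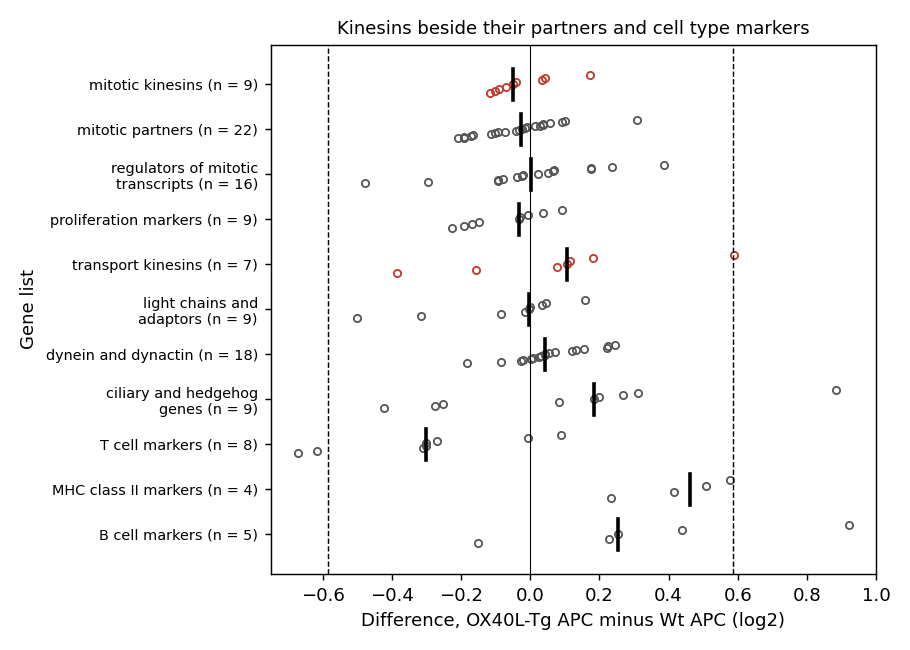
Differences (log2, OX40L-Tg APC minus Wt APC) of the genes above background in each list, with kinesins in red, black bars at the medians and dashed lines at 1.5-fold. Mitotic kinesins and their partners have medians of -0.05 and -0.03, transport kinesins stand at 0.11, T cell markers at -0.30 and MHC class II markers at 0.46.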

How the data were processed

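Values were probe set intensities of 2 Affymetrix HT MG-430 PM arrays, 1 per condition, deposited by the authors on a linear scale and made, per the submitters' processing notes, with RMA. This method corrects background, equalises the arrays and combines probes, so a shift in the RNA content of cells cannot be seen and differences of dim probe sets are understated. Its version and the arrays normalized together are not given in the sources used here. Log2 was taken first. Of 45141 probe sets, 28898 had 1 gene symbol, 551 several and 15692 none listed. A gene took its probe set with the highest mean. All 36 kinesins matched RefSeq of GRCm38.p6 by Entrez number, with 0 symbols changed. Genes restricted to other organs (72 with a value) set the background level. All members are named, and of each partner list the 2 members above background with the largest difference. Kif3a, Kifap3, Kifc2, Kifc3, Klc1, Klrd1, Hba-a1, Cd8a, Cd8b1, Flt3, Pax5, Tpx2, Racgap1, Foxm1 and Lin54 were named outside that rule, after values were seen. So were Smo, Sufu, Gli1, Gli2, Gli3, Plk1, Aurka, Aurkb, Bub1 and Ciita. Members, classes, lists and motifs were chosen with earlier results of these data known. Calculations used Python 3.11.15, numpy 2.4.6, pandas 2.3.3 and statsmodels 0.14.6 (lowess, span 0.3). On simulated arrays only the recovery of planted 2-fold changes at 1.5-fold was tested, with 1 probe set per gene.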

Additional observations from a re-analysis of the deposited data

How the results depend on the processing

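The class differences kept their sign in all 13 alternative settings. Among them were the mean of all probe sets, other floors, a lowess correction, an offset of 16 units and other class lists. Some could not change every value. Centring on the median moves both classes alike and keeps the gap between them. Leaving out transport kinesins cannot move the mitotic median, which the other floors also left at -0.05. Over the 12 settings that give medians, the mitotic median lay between -0.08 and -0.04, the transport median between 0.08 and 0.12, and their difference between -0.17 and -0.14. As means, the classes stood at -0.02 and 0.11, -0.13 apart. The count of kinesins at least 1.5-fold apart was 0 in place of 1 with the mean of all probe sets, the lowess correction, centring on the median, and the offset of 16 units. Kif3b, the gene counted, was then at 1.37-fold, 1.48-fold, 1.49-fold and 1.42-fold in that order. The count at 1.2-fold was 3 in place of 5 with the floor at the 75th percentile and with the offset of 16 units, and between 3 and 6 over 9 settings. The background level on at least 1 array, the 1.2-fold size, the counts with Kif3a and the mitotic range with Kif2a were added after seeing the data. No paired analysis was possible because each condition has 1 array. Differences of the 18 kinesins below background are bounded by signal over background and say little about those transcripts.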

Other observations

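Probe sets that the annotation pairs with Kif3c and another symbol stayed outside the comparison. One read 84.1 units in the Wt APC culture and 95.5 units in the OX40L-Tg APC culture, a difference of 0.18, which is also the difference of the probe set of Kif3c alone. The other read 8.88 and 9.76 units, below background.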
